A study of Homo sapiens with 15 samples.

Results

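The genes described here carry glucose into the cell and break it down to pyruvate, lactate or acetyl-CoA. The list holds 33 genes grouped by function, and it was chosen with earlier results of these data known. It covers the glucose transporters SLC2A1 and SLC2A3 and the enzymes of glycolysis from hexokinase to lactate dehydrogenase with their isoform genes. The PFKFB regulators of phosphofructokinase and the lactate transporters SLC16A1 and SLC16A3 are included. So are the pyruvate dehydrogenase kinases PDK1, PDK2 and PDK3 and the pyruvate dehydrogenase subunits PDHA1, PDHB, DLAT and PDHX. The mitochondrial pyruvate carrier genes MPC1 and MPC2 complete the list. Of the 33 genes, 30 were measured among 12149 genes by a probe set annotated to 1 gene, and each was read from its probe set with the highest mean. SLC16A1, SLC16A3 and PGAM1 had no such probe set in the annotations used and are not analysed here. PFKFB4 lay in the dimmest 25% of genes, which were left out, so 29 of the 30 were among the 9111 genes tested.

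The cells belong to the HMT3522 series, established human breast epithelial lines, and were cultured in 3 dimensions in laminin-rich extracellular matrix. Total RNA of 15 samples was measured on Affymetrix U133A-type arrays. The 9 samples called T4R are malignant T4 cells that the submitters name reverted, with 1 sample for each agent: GM6001, an agent labelled only MMPs and ADAMs, TNF protease inhibitor–2, PD98059, LY294002, dominant-negative Rap1, Tyrphostin AG 1478, mAb225 and AIIB2. T4, the malignant line without a named agent, has 3 samples, and S1, the nonmalignant line, has 3 samples. Both lines derive from 1 cell series, and the sources used here give no doses or times and do not say which samples received vehicle.

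Glycolysis turns glucose into pyruvate in the cytosol, and pyruvate is then either reduced to lactate or carried into mitochondria and oxidised to acetyl-CoA. Most steps are served by several isoform genes that differ in regulation and in tissue of expression. Many tumour cells take up much glucose and release lactate even in the presence of oxygen, and HIF-1 and MYC are known activators of many of these genes.

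The deposited values are log2 expression values in 2 tables, 1 for each array type. GM6001, MMPs and ADAMs, LY294002, all T4 samples and S1 samples 1 and 2 are in the first table, and the other 6 T4R samples and S1 sample 3 are in the second. The medians of the samples lay between 7.33 and 7.40. In the deposited values S1 sample 3 had 558 and 653 genes at least 2-fold apart from the other S1 samples, which had 16 between them. It is the only S1 sample on the second array type, so sample and array type cannot be told apart here. T4 sample 3 had 359 and 431 such genes against the other T4 samples, which are on the same array type and had 6 between them. The mean over 12 measured leukocyte, endothelial and adipocyte markers ran from 6.88 to 7.01 in T4R, from 6.86 to 6.94 in T4 and from 6.87 to 6.96 in S1. The mean of 9 epithelial markers ran from 10.58 to 11.24, from 10.28 to 10.73 and from 10.53 to 10.67 in the same groups, with KRT19 dim in all of them (6.65, 6.75 and 6.67). The mean of 8 fibroblast markers ran from 7.24 to 7.67 in T4R, from 7.22 to 7.31 in T4 and from 7.14 to 7.16 in S1. COL1A1 (9.72 in T4R, 8.94 in T4 and 8.05 in S1), DCN (7.97, 7.70 and 7.73) and CD14 (7.65, 7.99 and 6.95) were brighter than the sample medians in at least 1 group, and the part of these markers in the results was not tested. In bulk RNA, fewer cells of a type and less RNA per cell cannot be told apart.

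Between the malignant and the nonmalignant line 15 of the 29 members changed, most of them upward, and 25 of the 29 passed no test between T4R and S1. T4 against S1 had 11 of 29 members higher (37.9%), where 14.6% of all genes tested were higher, and 4 lower (13.8%), where 12.3% of all genes were lower. The median log2 difference of the members was 0.30, against 0.01 over all genes tested. In T4R against T4, 3 members were higher (10.3%, all genes 6.46%) and 8 were lower (27.6%, all genes 8.44%), with a median of -0.28. In T4R against S1, 3 members were higher (10.3%, all genes 11.8%) and 1 was lower (3.4%, all genes 11.4%), with a median of -0.02. The shares lower in T4 than in S1 and higher in T4R than in S1 were close to those of all genes. A gene was called when the adjusted p of limma's moderated test was under 0.05, with a fitted difference between the tables removed. The comparisons share samples, so they are given side by side and not as independent evidence. The number of members higher in T4 than in S1 fell to 6 when S1 sample 1, S1 sample 2, T4 sample 1 or T4 sample 2 was left out. The number lower in T4R than in T4 was 5 without T4 sample 1, 4 without T4 sample 2 and 5 without the LY294002 sample.

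**Figure D1:**
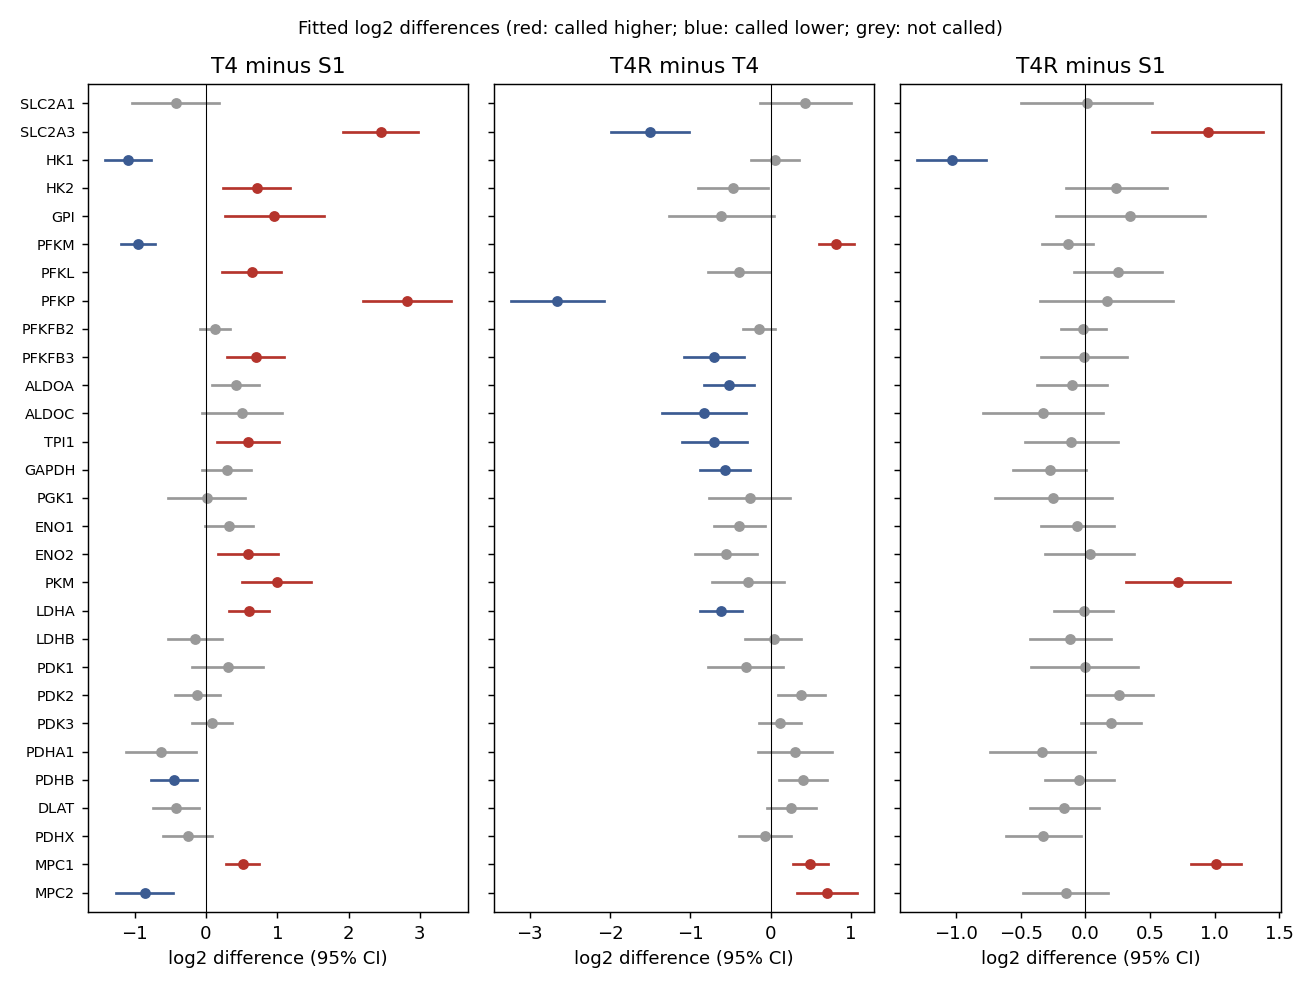
Fitted log2 differences (x axis) of the 29 tested members (y axis, in pathway order) for T4 minus S1, T4R minus T4 and T4R minus S1, with lines for 95% confidence intervals; red marks members called higher, blue called lower and grey not called. PFKP and SLC2A3 have the widest swings, at 2.82 and 2.45 in T4 minus S1 and -2.65 and -1.50 in T4R minus T4. The x axes differ in range between panels.

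The glucose transporters parted. SLC2A3 encodes GLUT3, a high-affinity transporter best known from neurons. Its log2 level was 8.08 to 8.69 in the T4R samples (median 8.33), against 10.35, 9.91 and 9.28 in T4 and 7.45, 7.61 and 7.16 in S1. The 3 groups did not overlap, and the T4R samples stood between T4 and S1. SLC2A3 was higher in T4 than in S1 by 2.45 ± 0.24 (SE, 5.46-fold, adjusted p 1.33e-05) and lower in T4R than in T4 by 2.84-fold (log2 difference -1.50 ± 0.23, adjusted p 0.000754). It stayed 0.94 ± 0.20 above S1 in T4R (adjusted p 0.00412), a call that was lost without S1 sample 3 (0.73, adjusted p 0.0671) and in the first table alone (adjusted p 0.0981). All 3 probe sets of SLC2A3 gave the same calls. SLC2A1, which encodes GLUT1, the widespread basal transporter, had 9.35 to 10.51 in T4R (median 9.89), 9.72, 9.71 and 8.92 in T4, and 10.13, 10.05 and 9.41 in S1. These ranges overlapped and no difference passed the test (-0.43 ± 0.28 in T4 minus S1, 0.43 ± 0.26 in T4R minus T4). With array weights SLC2A1 was called lower in T4 than in S1 (-0.39, adjusted p 0.032).

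Hexokinase phosphorylates glucose and so traps it in the cell. HK1, the form found in most tissues, had 9.84 to 10.38 in T4R (median 10.16), against 9.85, 9.78 and 10.28 in T4 and 11.21, 11.01 and 11.11 in S1. Every T4R and every T4 sample lay below every S1 sample. HK1 was lower than in S1 by 2.13-fold in T4 (-1.09 ± 0.15, adjusted p 0.000163) and by 2.05-fold in T4R (-1.03 ± 0.12, adjusted p 6.93e-05), and did not pass the test between T4R and T4 (0.06 ± 0.14). HK2, the inducible form of muscle and many tumours, had 8.26 to 9.16 in T4R (median 8.48), against 9.46, 9.14 and 8.82 in T4 and 8.59, 8.53 and 8.01 in S1. HK2 was higher in T4 than in S1 by 0.71 ± 0.22 (adjusted p 0.0268), a call lost without S1 sample 2, S1 sample 3, T4 sample 1 or T4 sample 2 (0.55 to 0.77, adjusted p 0.0565 to 0.104). The T4R samples did not pass the test against T4 (-0.47 ± 0.20, adjusted p 0.141). Under 6 alternatives HK2 was called lower in T4R than in T4. Among them, leaving out the dominant-negative Rap1 sample gave -0.49 (adjusted p 0.0278). The first table alone gave -0.56 (adjusted p 0.0491) and the fit without the table term -0.58 (adjusted p 0.034). A second, dimmer HK2 probe set showed no change (-0.04 ± 0.13 in T4 minus S1, adjusted p 0.887).

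**Figure D2:**
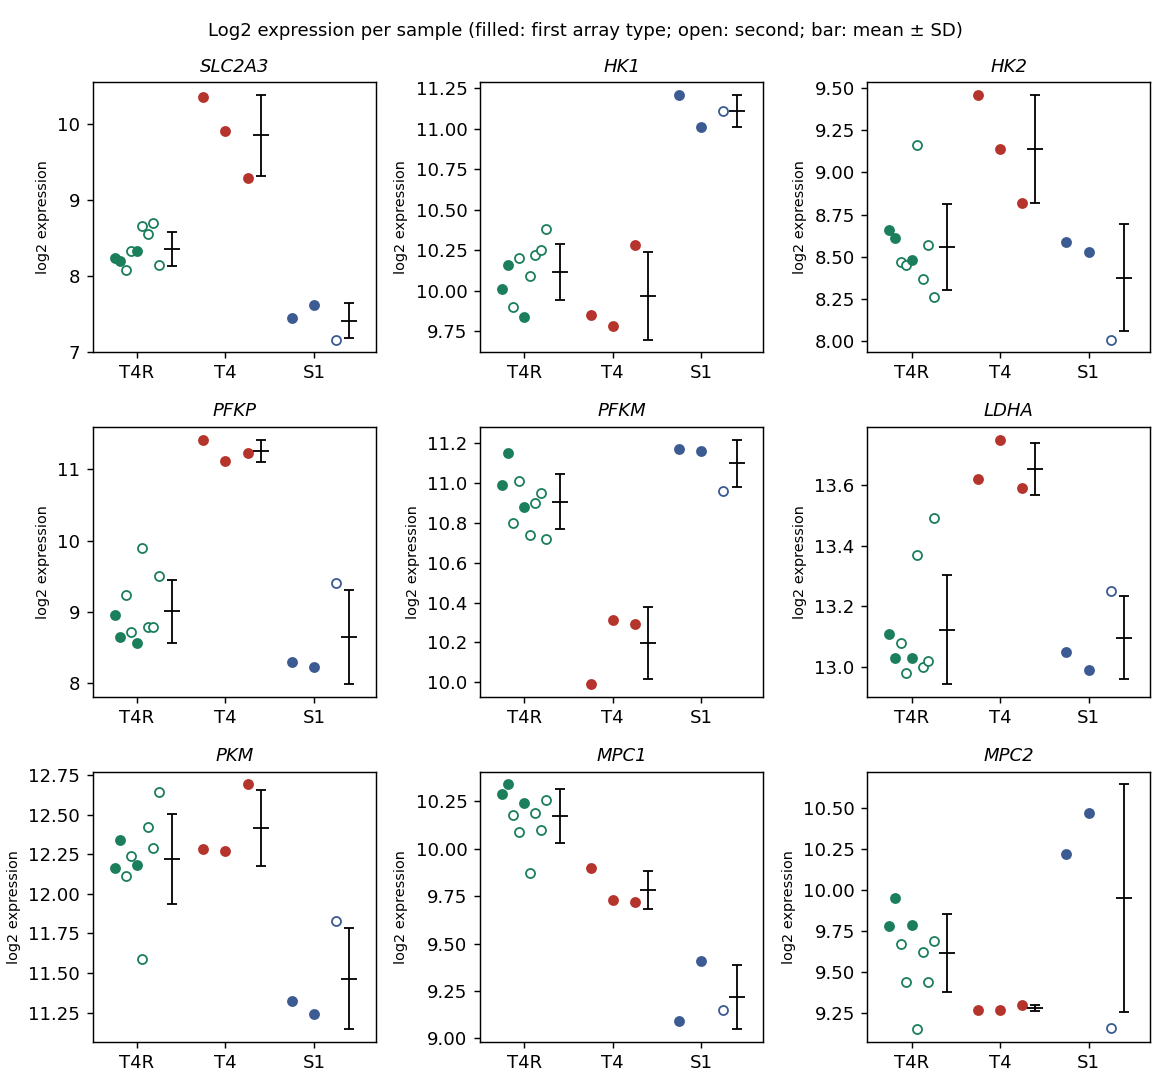
Log2 expression (y axes, each with its own range) of 9 members in every sample of T4R, T4 and S1 (x axes); filled points come from the first array type, open points from the second, and bars are means ± SD (n = 9, 3 and 3). SLC2A3, PFKP and LDHA stand highest in T4, PFKM lowest in T4, HK1 high only in S1, and MPC1 highest in T4R.

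The phosphofructokinase step, the main control point of glycolysis, showed opposite changes of its isoform genes. PFKP, the platelet form, had 8.56 to 9.89 in T4R (median 8.79), against 11.42, 11.12 and 11.23 in T4 and 8.29, 8.23 and 9.41 in S1. T4 lay above all T4R and S1 samples, whereas T4R and S1 overlapped. PFKP was 7.05-fold higher in T4 than in S1 (2.82 ± 0.29, adjusted p 1.71e-05) and 6.29-fold lower in T4R than in T4 (-2.65 ± 0.27, adjusted p 3.72e-05). PFKM, the muscle form, had 10.72 to 11.15 in T4R (median 10.90), against 9.99, 10.31 and 10.29 in T4 and 11.17, 11.16 and 10.96 in S1. Here T4 lay below all other samples. PFKM was 1.94-fold lower in T4 than in S1 (-0.96 ± 0.11, adjusted p 4.45e-05) and 1.76-fold higher in T4R than in T4 (0.82 ± 0.10, adjusted p 0.000209). In T4R against S1 neither passed the test, at 0.16 (95% confidence interval -0.35 to 0.67) for PFKP and -0.14 (-0.33 to 0.06) for PFKM. PFKL, the liver form, had 7.99 to 8.26 in T4R, 8.22, 8.39 and 8.07 in T4, and 7.25, 7.39 and 8.49 in S1. It was higher in T4 than in S1 by 0.64 ± 0.19 (adjusted p 0.0238), but S1 sample 3 lay above every T4 sample. That call was lost without S1 sample 1, S1 sample 2, T4 sample 1 or T4 sample 2 (0.44 to 0.65, adjusted p 0.0538 to 0.143), as well as without the table term (0.52, adjusted p 0.113). The second PFKL probe set did not pass the test (0.31 ± 0.12). Without S1 sample 3, PFKL was also called higher in T4R than in S1 (0.69, adjusted p 0.000633).

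RefSeq promoter windows, from 250 bases before to 50 after an annotated start, are shown for PFKP and PFKM, which moved in opposite directions, and for LDHA and MPC1, which were both higher in T4 than in S1 and then parted in T4R. The build is GRCh38.p14, each is the first window listed for its gene, and each runs 5′ to 3′ on the gene's strand. Capitals mark ACGTG and GCGTG, the cores of hypoxia response elements, on either strand. CACGTG, the E-box bound by MYC and MAX, contains ACGTG and reads the same on both strands.
PFKP, chr10:3067720-3068019, plus strand: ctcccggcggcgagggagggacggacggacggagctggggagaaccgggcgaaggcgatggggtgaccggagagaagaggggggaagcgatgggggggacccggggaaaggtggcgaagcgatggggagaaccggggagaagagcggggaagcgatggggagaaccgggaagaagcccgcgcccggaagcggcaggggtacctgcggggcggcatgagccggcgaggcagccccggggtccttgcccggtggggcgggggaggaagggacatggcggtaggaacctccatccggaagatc
PFKM, chr12:48105623-48105922, plus strand: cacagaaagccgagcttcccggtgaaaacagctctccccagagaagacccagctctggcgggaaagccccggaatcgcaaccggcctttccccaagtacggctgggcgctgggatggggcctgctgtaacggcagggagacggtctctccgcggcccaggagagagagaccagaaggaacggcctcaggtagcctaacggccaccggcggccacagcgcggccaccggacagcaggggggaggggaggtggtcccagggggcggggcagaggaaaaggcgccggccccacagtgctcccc
LDHA, chr11:18394313-18394612, plus strand: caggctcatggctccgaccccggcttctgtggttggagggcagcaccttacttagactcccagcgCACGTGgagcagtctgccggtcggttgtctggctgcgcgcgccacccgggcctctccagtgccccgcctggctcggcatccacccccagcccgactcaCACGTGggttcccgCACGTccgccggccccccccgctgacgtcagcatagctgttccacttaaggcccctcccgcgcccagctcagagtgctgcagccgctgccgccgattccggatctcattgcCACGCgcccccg
MPC1, chr6:166382891-166383190, minus strand: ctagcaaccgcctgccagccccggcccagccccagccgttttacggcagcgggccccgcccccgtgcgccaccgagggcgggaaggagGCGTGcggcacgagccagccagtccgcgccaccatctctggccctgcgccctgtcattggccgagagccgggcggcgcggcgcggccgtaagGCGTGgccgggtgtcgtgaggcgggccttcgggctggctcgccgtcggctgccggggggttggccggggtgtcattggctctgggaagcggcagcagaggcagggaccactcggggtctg
The LDHA window held CACGTG at 2 places, each read on both strands, and 2 further cores, the MPC1 window held GCGTG at 2 places, and the PFKP and PFKM windows held none. PFKP has 4 listed windows and PFKM has 7, some of the others with a match. Of the 33 members, 30 had at least 1 window, and 20 of these 30 first windows (66.7%) held ACGTG or GCGTG, against 48.4% of 27305 first windows in the whole table. CACGTG was in 4 of the 30 (13.3%), against 7.43% of all. These matches are letters in a window and are given as a description.

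PFKFB3, whose product makes fructose 2,6-bisphosphate, the strongest activator of phosphofructokinase, had 8.24 to 9.03 in T4R (median 8.65), against 9.01, 9.29 and 9.54 in T4 and 8.54, 8.79 and 8.56 in S1. T4 lay above S1, and only the highest T4R sample, mAb225, reached the lowest T4 sample. PFKFB3 was higher in T4 than in S1 by 0.70 ± 0.18 (adjusted p 0.0134) and lower in T4R than in T4 by 1.63-fold (-0.71 ± 0.17, adjusted p 0.0145). The first call was lost without T4 sample 3 (0.57, adjusted p 0.0536) or S1 sample 1 (0.67, adjusted p 0.0501) and in the first table alone (0.61, adjusted p 0.0697), the second without T4 sample 3 (-0.58, adjusted p 0.0642). PFKFB2, a relative best known from heart, stayed between 6.88 and 7.44 in all 15 samples and passed no test. PFKFB4, the untested member, lay between 6.83 and 7.22.

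The isomerases and the enzymes after phosphofructokinase showed smaller differences than PFKP and SLC2A3 in both comparisons with T4. GPI, which interconverts glucose 6-phosphate and fructose 6-phosphate just above phosphofructokinase, had 10.36 to 11.96 in T4R (median 11.41), 11.85, 12.14 and 11.86 in T4, and 10.76, 10.75 and 11.38 in S1. Its difference in T4 minus S1 was 0.96 ± 0.33 (adjusted p 0.042). TPI1, triose phosphate isomerase, had 10.70 to 11.75 in T4R (median 11.36), 11.89, 11.91 and 11.87 in T4, and 11.19, 11.23 and 11.68 in S1. T4 lay above every other sample for TPI1, which was higher in T4 than in S1 (0.59 ± 0.20, adjusted p 0.044) and lower in T4R than in T4 (-0.70 ± 0.19, adjusted p 0.023). With the sample number as a replicate block, GPI (0.93, adjusted p 0.0563) and TPI1 (0.58, adjusted p 0.0611) were no longer called in T4 against S1. The GPI call was also lost when 1 sample was left out, for each of the T4 samples, S1 samples 1 and 2, GM6001, TNF protease inhibitor–2, LY294002 and Tyrphostin AG 1478 (0.81 to 1.01, adjusted p 0.0506 to 0.161). The TPI1 call in T4 against S1 was lost without S1 sample 1 or 2, any T4 sample, or the T4R samples TNF protease inhibitor–2, PD98059, LY294002, Tyrphostin AG 1478 or mAb225 (0.52 to 0.60, adjusted p 0.0563 to 0.148), and that in T4R against T4 without any T4 sample or LY294002 (-0.71 to -0.66, adjusted p 0.0541 to 0.0608).

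The aldolases and GAPDH were lower in T4R than in T4 but were not called between T4 and S1. ALDOA, the main aldolase of muscle and most tissues, had 11.97 to 12.59 in T4R, 12.87, 13.02 and 12.56 in T4, and 12.53, 12.22 and 12.55 in S1, with -0.52 ± 0.14 in T4R minus T4 (adjusted p 0.0264). ALDOC, the brain form, had 7.99 to 8.79 in T4R, 9.81, 9.96 and 8.75 in T4, and 8.90, 8.90 and 8.83 in S1, with -0.83 ± 0.24 (adjusted p 0.034). For both, T4R overlapped only with the lowest T4 sample, T4 sample 3. GAPDH, which makes NADH in glycolysis, had 12.82 to 13.47 in T4R, 13.54, 13.82 and 13.69 in T4, and 13.49, 13.28 and 13.38 in S1, with -0.57 ± 0.15 in T4R minus T4 (adjusted p 0.0196). All 3 GAPDH probe sets were lower in T4R than in T4, and both ALDOA probe sets were, the second also being higher in T4 than in S1 (0.57 ± 0.15, adjusted p 0.0218). ALDOA and ALDOC were called higher in T4 than in S1 without T4 sample 3 (0.55 and 0.88, adjusted p 0.023 and 0.00346). ALDOA was also called without PD98059 (0.44, adjusted p 0.0174). Array weights called both higher in T4 than in S1 (0.50 and 0.89, adjusted p 0.00409 and 0.000116). In T4R against T4, ALDOA lost its call without T4 sample 1, T4 sample 2, GM6001, MMPs and ADAMs, or LY294002 (-0.54 to -0.42, adjusted p 0.0501 to 0.0984). ALDOC lost its call without any S1 sample, T4 sample 1, T4 sample 2, GM6001, MMPs and ADAMs, or LY294002 (-0.88 to -0.61, adjusted p 0.0504 to 0.13), and GAPDH when T4 sample 2 (-0.50, adjusted p 0.0665) and when T4 sample 3 was left out (-0.56, adjusted p 0.0516).

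Of the enzymes between GAPDH and pyruvate, PGK1, the first ATP-making kinase, passed no test. Its values were 11.41 to 12.64 in T4R, 12.56, 12.41 and 12.10 in T4, and 12.18, 12.31 and 12.58 in S1. ENO1, the common enolase, was not called (0.33 ± 0.16 in T4 minus S1, adjusted p 0.145). It was called without S1 sample 3 (0.47, adjusted p 0.025), in the first table alone and with only the T4 and S1 samples (0.47 in both, adjusted p 0.01 and 0.0358), and with array weights (0.37, adjusted p 0.0109). ENO2, the neuronal enolase, had 6.70 to 7.54 in T4R (median 6.92), 7.61, 7.55 and 6.88 in T4, and 6.74, 6.81 and 6.95 in S1. It was higher in T4 than in S1 by 0.59 ± 0.19 (adjusted p 0.0372), although T4 sample 3 lay below S1 sample 3. That call was lost without any S1 sample, T4 sample 1, T4 sample 2, GM6001, or MMPs and ADAMs (0.46 to 0.62, adjusted p 0.0525 to 0.133). ENO2 was called lower in T4R than in T4 without T4 sample 3 or dominant-negative Rap1 (-0.79 and -0.57, adjusted p 0.00618 to 0.0135).

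PKM, pyruvate kinase, whose alternative exons give a form of adult muscle and a form of proliferating cells, had 11.59 to 12.64 in T4R (median 12.24), against 12.28, 12.27 and 12.69 in T4 and 11.32, 11.24 and 11.83 in S1. Only the dominant-negative Rap1 sample of T4R lay within the S1 range. PKM was higher than in S1 by 1.99-fold in T4 (0.99 ± 0.23, adjusted p 0.00533) and by 1.64-fold in T4R (0.71 ± 0.19, adjusted p 0.0136), with no call between T4R and T4 (-0.28 ± 0.21). The T4R call was lost without S1 sample 1 (0.67, adjusted p 0.0537) or S1 sample 2 (0.63, adjusted p 0.0604), and in the second table alone (0.39, adjusted p 0.505). The other probe sets of PKM, both dim, passed no test (0.42 ± 0.23 and -0.01 ± 0.10 in T4 minus S1), and which PKM form each one reads is not given in the files.

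Lactate dehydrogenase converts pyruvate and lactate into each other. LDHA, the form of muscle and many tumours, had 12.98 to 13.49 in T4R (median 13.03), against 13.62, 13.75 and 13.59 in T4 and 13.05, 12.99 and 13.25 in S1. T4 lay above every other sample. LDHA was 1.52-fold higher in T4 than in S1 (0.60 ± 0.13, adjusted p 0.0036). It was 1.53-fold lower in T4R than in T4 (-0.62 ± 0.12, adjusted p 0.00413). The mean difference of T4R minus S1 was not called (95% confidence interval -0.24 to 0.21). LDHB, the heart form, had 12.21 to 12.91 in T4R, 12.34, 12.62 and 12.86 in T4, and 12.66, 12.66 and 12.92 in S1, and passed no test.

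Pyruvate enters mitochondria through the carrier formed by MPC1 and MPC2. These moved in opposite directions between S1 and T4, and both were called higher in T4R than in T4. MPC1 had 9.87 to 10.34 in T4R (median 10.19), against 9.90, 9.73 and 9.72 in T4 and 9.09, 9.41 and 9.15 in S1. All S1 samples lay lowest, and only the dominant-negative Rap1 sample of T4R fell within the T4 range. MPC1 was higher in T4 than in S1 (0.52 ± 0.11, adjusted p 0.0036), higher in T4R than in T4 (0.49 ± 0.10, adjusted p 0.00599), and 2.01-fold higher in T4R than in S1 (1.01 ± 0.09, adjusted p 6.99e-06). MPC2 had 9.15 to 9.95 in T4R (median 9.67), against 9.27, 9.27 and 9.30 in T4 and 10.22, 10.47 and 9.16 in S1. MPC2 was lower in T4 than in S1 (-0.86 ± 0.19, adjusted p 0.00403) and higher in T4R than in T4 (0.70 ± 0.17, adjusted p 0.0151). The array types differed for MPC2, with the second table lower by a fitted -0.55 (adjusted p 0.0161). Without S1 sample 3 MPC2 was also lower in T4R than in S1 (-0.50, adjusted p 0.0276), as in the first table alone (adjusted p 0.013). Both MPC2 calls depended on the table term. Without it T4 minus S1 was -0.67 (adjusted p 0.0764) and T4R minus T4 was 0.34 (adjusted p 0.312), and with the table as a random block T4R minus T4 was 0.56 (adjusted p 0.062).

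The pyruvate dehydrogenase complex oxidises pyruvate to acetyl-CoA and the PDK kinases switch it off. PDHB, a subunit of its first enzyme, had 10.002 to 10.961 in T4R, 10.34, 10.40 and 10.28 in T4, and 10.55, 10.80 and 10.58 in S1. It was lower in T4 than in S1 by 1.37-fold (-0.45 ± 0.15, adjusted p 0.0378), with the second table lower by a fitted -0.43 (adjusted p 0.0179). The call was lost without S1 sample 2, S1 sample 3, any T4 sample, or MMPs and ADAMs (-0.48 to -0.34, adjusted p 0.0532 to 0.106), and its second probe set did not pass (-0.34 ± 0.16). Without the table term it was also lost (-0.31, adjusted p 0.319). PDHB was called higher in T4R than in T4 without S1 sample 1, S1 sample 3 or dominant-negative Rap1 (0.41 to 0.48, adjusted p 0.0271 to 0.0418). PDHA1, the other subunit of that enzyme, and DLAT, the second enzyme, had -0.64 ± 0.23 (adjusted p 0.0533) and -0.42 ± 0.15 (adjusted p 0.0551) in T4 minus S1. With the replicate block DLAT was called lower (-0.46, adjusted p 0.00645). DLAT was also called without T4 sample 3 (-0.57, adjusted p 0.0116) or S1 sample 1 (-0.54, adjusted p 0.0392), and PDHA1 without LY294002, dominant-negative Rap1 or AIIB2 (-0.67 to -0.60, adjusted p 0.0141 to 0.0458). Other alternatives also called PDHA1 lower, among them the first table alone and only the T4 and S1 samples (-0.685 in both, adjusted p 0.0109 and 0.0197). So did the fit without the table term (-0.655, adjusted p 0.04). Array weights called both PDHA1 (-0.765, adjusted p 0.000387) and DLAT (-0.452, adjusted p 0.00225) lower.

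PDHX, which binds the third enzyme of the complex, and the kinases were not called in any comparison. The kinase values ran from 7.19 to 7.99 for PDK1 in T4R, against 8.02, 7.80 and 7.34 in T4 and 7.41, 7.77 and 7.08 in S1. PDK2 ran from 7.74 to 8.13 in T4R, against 7.61, 7.84 and 7.28 in T4, and was called higher in T4R without T4 sample 2 (0.51, adjusted p 0.0274) and without the table term (0.35, adjusted p 0.0488). PDK3 was called higher in T4R than in S1 without S1 sample 3 (0.39, adjusted p 0.0411) and with array weights (0.34, adjusted p 0.00712). PDK1 was called with array weights, higher in T4 than in S1 (0.37, adjusted p 0.0377) and lower in T4R than in T4 (-0.59, adjusted p 0.0014).

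Isoform switches were read as the log2 difference between the isoform genes of a step within a sample, after removal of the fitted table effect. Probe sets differ in brightness for equal RNA, so only the change of a difference between samples is read, with no test. The PFKP minus PFKM difference was -3.08 to -1.62 in T4R, against 1.43, 0.81 and 0.94 in T4 and -2.88, -2.93 and -2.32 in S1. It was 3.77 higher in T4 than in S1 and lower by -3.47 in T4R than in T4 (3.52 and -2.96 without removing the table effect). All 9 T4R samples lay below T4. PD98059 (-3.08) lay below the S1 range, and mAb225 (-2.93), Tyrphostin AG 1478 (-2.88), MMPs and ADAMs (-2.50), TNF protease inhibitor–2 (-2.34) and LY294002 (-2.32) lay within it. GM6001 (-2.03), AIIB2 (-1.99) and dominant-negative Rap1 (-1.62) lay between S1 and T4, nearer to S1. The order of the agents depended on removing the table effect. Without this, S1 ran from -2.93 to -1.55, and PD98059 (-2.31) and GM6001 (-2.03) lay within it. MMPs and ADAMs (-2.50) was then the lowest agent, and AIIB2 (-1.22) and dominant-negative Rap1 (-0.85) lay between S1 and T4. With the table effect removed, the PFKP minus PFKL difference changed by 2.17 in T4 minus S1 and by -2.26 in T4R minus T4. The PFKL minus PFKM difference changed by 1.6 and -1.21. In both pairs T4 did not overlap with S1 or T4R. PFKFB4 minus PFKFB3, with PFKFB4 dim, changed by -0.76 and 0.7 without overlap. When the table effect was kept, T4R overlapped T4 for that pair. PFKFB3 minus PFKFB2 overlapped in every comparison.

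The SLC2A3 minus SLC2A1 difference was 2.87 higher in T4 than in S1, and T4R lay -1.94 from T4. T4R ran from -2.41 to -0.74, against 0.63, 0.20 and 0.36 in T4 and -2.68, -2.45 and -2.29 in S1. Of the 9 agents only AIIB2 (-2.41) entered the S1 range, and dominant-negative Rap1 (-0.74) lay nearest to T4. The HK2 minus HK1 difference was -1.83 to -0.64 in T4R, against -0.39, -0.64 and -1.47 in T4 and -2.62, -2.48 and -2.80 in S1. Here T4R overlapped T4 and no agent reached S1. The LDHA minus LDHB difference was 0.02 to 1.00 in T4R, against 1.28, 1.13 and 0.73 in T4 and 0.38, 0.33 and 0.17 in S1. Dominant-negative Rap1 (1.00) lay within the T4 range and AIIB2 (0.65), LY294002 (0.47) and GM6001 (0.41) between the ranges. Without removing the table effect from this pair, AIIB2 (0.81) also lay within the T4 range, and PD98059 (0.49) and mAb225 (0.5) lay between the ranges. The PDK1 minus PDK2 difference was -0.76 to -0.21 in T4R, against 0.41, -0.03 and 0.06 in T4, without overlap, and -0.43, 0.02 and -0.44 in S1. The enolase and aldolase pairs overlapped between all groups.

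**Figure D3:**
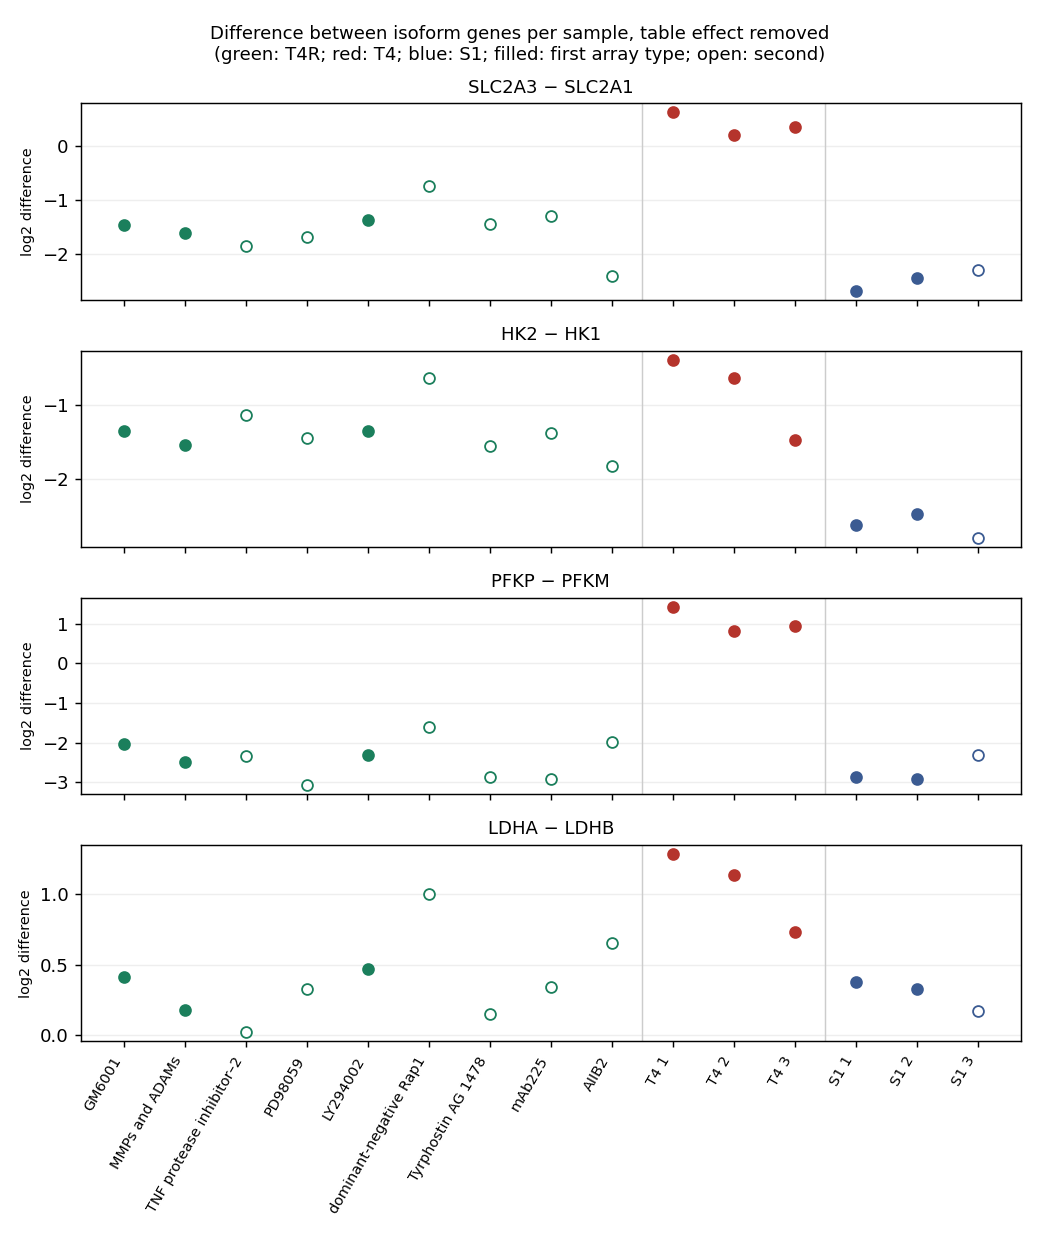
Log2 difference between 2 isoform genes (y axes) in each T4R, T4 and S1 sample (x axis), table effect removed; filled points come from the first array type and open points from the second. The height of a point has no meaning by itself, only its change between samples. PFKP minus PFKM and SLC2A3 minus SLC2A1 separate T4 from all other samples, while HK2 minus HK1 separates S1 from all others.

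Each agent is 1 sample, so the agents' values are a description. They are log2 differences from the mean of T4 with the table effect taken out. No agent is in both tables, so part of that effect may be differences between agents. Of the 11 members higher in T4 than in S1, between 8 (AIIB2) and 10 lay below the T4 mean in each agent, 9 in dominant-negative Rap1. Of the 4 members lower in T4, 3 or 4 lay above it in each. The same T4 samples picked these genes and set the mean, so such counts lean this way by construction. The like share over all genes was not computed, and the counts are not read as an effect of each agent. PFKP ran from -3.16 (PD98059) to -1.97 (dominant-negative Rap1), SLC2A3 from -1.79 (TNF protease inhibitor–2) to -1.18 (mAb225), LDHA from -0.80 (PD98059) to -0.29 (AIIB2) and PFKM from 0.69 (LY294002 and AIIB2) to 0.98 (PD98059), so that all 9 agents shared the direction for these genes. The dominant-negative Rap1 sample had the lowest GPI (-1.52), TPI1 (-1.38), PGK1 (-0.97) and PKM (-0.95), while its HK2 (0.18) and PDK1 (0.25) were above the T4 mean and its ENO2 (-0.05) was close to it. AIIB2 had the highest SLC2A1 (1.09), and was the only agent whose GPI (0.09), PKM (0.10) and PGK1 (0.25) lay above the T4 mean.

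**Figure D4:**
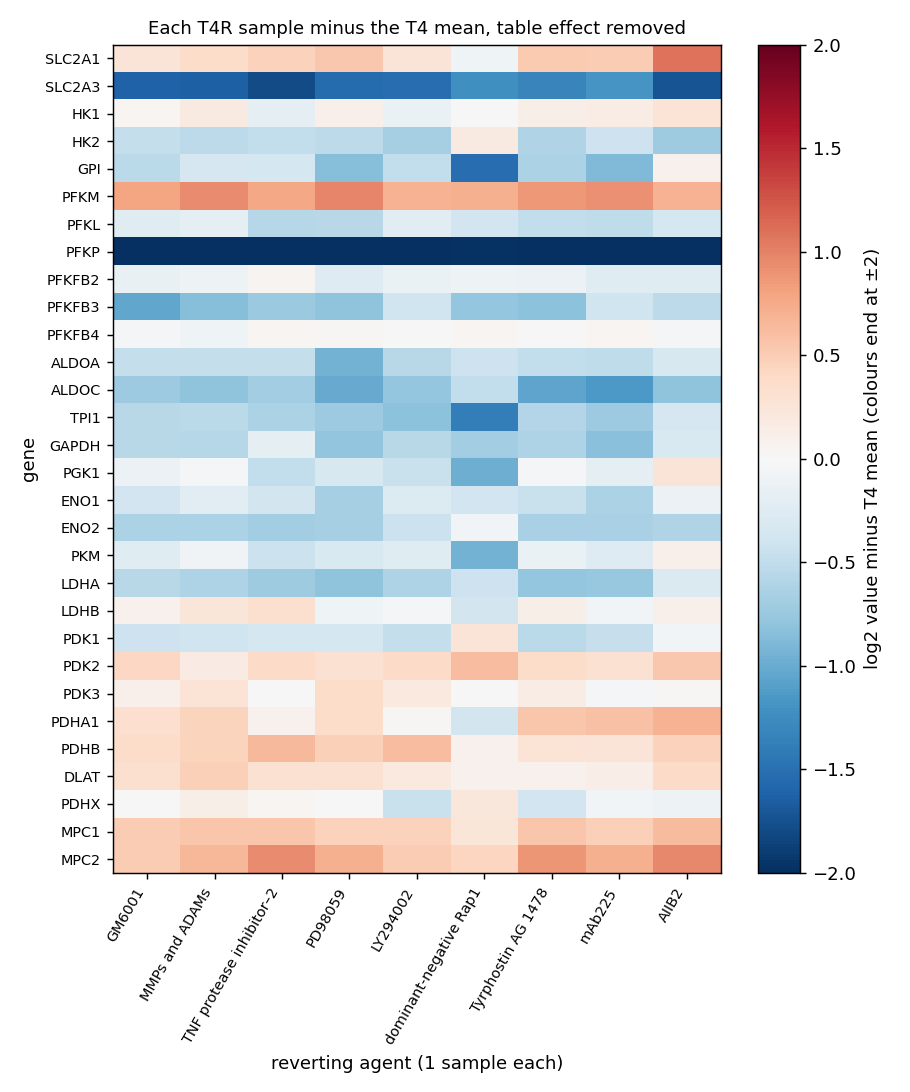
Log2 value of each T4R sample minus the T4 mean, table effect removed, for the 30 measured members (rows) and 9 agents (columns, 1 sample each); blue is below and red above the T4 mean, and colours end at ±2. PFKP and SLC2A3 are blue and PFKM, MPC1 and MPC2 red in every column, whereas GPI, TPI1, PGK1 and PKM are deepest blue with dominant-negative Rap1.

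Of 15 other tested glycolysis and gluconeogenesis genes, 2 were higher in T4 than in S1 and 0 lower at an adjusted p under 0.05. The 2 were BSG (1.01 ± 0.33, adjusted p 0.0371), a chaperone of lactate transporters, and SLC2A6 (0.91 ± 0.31, adjusted p 0.0461), a transporter relative. Over all genes tested, 14.6% were higher and 12.3% lower in this comparison. The BSG call was lost without S1 sample 1, S1 sample 2 or any T4 sample (0.84 to 1.06, adjusted p 0.0652 to 0.155), and the SLC2A6 call when any 1 sample other than the T4 samples and dominant-negative Rap1 was left out (0.86 to 0.94, adjusted p 0.0556 to 0.131). PCK2, mitochondrial phosphoenolpyruvate carboxykinase, was lower in T4R than in T4 (-0.46 ± 0.12, adjusted p 0.023) and than in S1 (-0.62 ± 0.11, adjusted p 0.0013). The first of these calls was lost without T4 sample 2, MMPs and ADAMs or LY294002 (-0.47 to -0.35, adjusted p 0.0517 to 0.0914). ENO3, the muscle enolase, was lower in T4R than in S1 (-0.18 ± 0.06, adjusted p 0.0467), a call lost when any 1 sample other than T4 sample 3, TNF protease inhibitor–2 and dominant-negative Rap1 was left out (-0.21 to -0.15, adjusted p 0.0538 to 0.164). 

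Of 6 other genes of the pyruvate dehydrogenase system, 3 were lower in T4 than in S1, where 12.3% of all genes tested were lower. PDK4, the starvation-induced kinase, was at -1.90 ± 0.11 (adjusted p 1.41e-07) and LIAS, which makes the lipoate cofactor, at -1.53 ± 0.17 (adjusted p 3e-05). DLD, the third enzyme, was at -0.96 ± 0.12 (adjusted p 8.98e-05). LIAS and DLD were higher in T4R than in T4 (0.61 ± 0.15 and 0.48 ± 0.11, adjusted p 0.0182 and 0.0111), but LIAS not without T4 sample 3 (0.49, adjusted p 0.079) and DLD not without T4 sample 1 (0.43, adjusted p 0.0502). Without the table term these differences were 0.27 and 0.23 and neither was called (adjusted p 0.364 and 0.299). Against S1, T4R was lower for PDK4 (-1.71 ± 0.09, adjusted p 6.51e-08), LIAS (-0.92 ± 0.14, adjusted p 0.00039) and DLD (-0.47 ± 0.10, adjusted p 0.00387), the DLD call being lost without S1 sample 3 (-0.36, adjusted p 0.0637).

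Of 19 tested regulators of glycolysis, 6 were higher and 1 lower in T4 than in S1 (all genes 14.6% and 12.3%). In T4R against T4, 1 was higher and 2 were lower (all genes 6.46% and 8.44%). In T4R against S1, 3 were higher and 3 lower (all genes 11.8% and 11.4%). With 19 genes, the counts in both T4R comparisons are near those shares and are not read as a result about the regulators. EPAS1, which encodes a hypoxia-inducible factor, was higher in T4 than in S1 (1.46 ± 0.32, adjusted p 0.00442) and lower in T4R than in T4 (-1.13 ± 0.30, adjusted p 0.0213). The T4R call was lost without T4 sample 3, GM6001 or MMPs and ADAMs (-1.12 to -1.01, adjusted p 0.0507 to 0.073). EGLN3, a prolyl hydroxylase that hypoxia-inducible factors induce, was also higher in T4 than in S1 (1.09 ± 0.32, adjusted p 0.0221) and lower in T4R than in T4 (-1.14 ± 0.30, adjusted p 0.0205). In the first table alone neither call held (1.12 and -1.12, adjusted p 0.104 and 0.111). They were lost without T4 sample 1 or T4 sample 2, the first also without S1 sample 1 or 2 (0.68 to 1.11, adjusted p 0.0627 to 0.0793) and the second also without MMPs and ADAMs (-1.11 to -0.73, adjusted p 0.0532 to 0.076).

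MYC, an activator of many glycolysis genes, was higher in T4 than in S1 (0.95 ± 0.33, adjusted p 0.0446), a call lost when any 1 sample other than T4 sample 3, S1 sample 1, TNF protease inhibitor–2, LY294002 and dominant-negative Rap1 was left out (0.66 to 0.97, adjusted p 0.0507 to 0.223). ESRRA, a nuclear receptor of mitochondrial genes, was lower in T4 than in S1 (-0.51 ± 0.16, adjusted p 0.0302), but not without S1 sample 1, S1 sample 2, T4 sample 1 or T4 sample 3 (-0.50 to -0.32, adjusted p 0.0677 to 0.186). MAX, the partner of MYC, was higher in T4R than in S1 (1.04 ± 0.13, adjusted p 0.000112) and than in T4 (0.60 ± 0.15, adjusted p 0.0156), the call against T4 being lost when T4 sample 1 was left out (0.58, adjusted p 0.0502) and when T4 sample 3 was (0.51, adjusted p 0.0632). With the MAX probe set of largest interquartile range, or the mean of its probe sets, T4R minus T4 was 0.22 or 0.21 and was not called (adjusted p 0.623 and 0.348). HIF1A, the best known hypoxia-inducible factor, was higher in T4R than in S1 (1.04 ± 0.16, adjusted p 0.000434), and PRKAA1, a subunit of the energy sensor AMPK, was lower (-0.62 ± 0.14, adjusted p 0.00566). AKT1 was higher in T4R than in S1 (0.43 ± 0.11, adjusted p 0.0105), but not without S1 sample 3 (0.38, adjusted p 0.0862). AKT2 was lower (-0.26 ± 0.07, adjusted p 0.0182), but not without S1 sample 2 (-0.21, adjusted p 0.0896) or S1 sample 3 (-0.24, adjusted p 0.109), nor with the mean of its probe sets (-0.13, adjusted p 0.106). EGLN2 was lower (-0.27 ± 0.09, adjusted p 0.0442), a call lost when any 1 sample other than the T4 samples and dominant-negative Rap1 was left out (-0.30 to -0.22, adjusted p 0.0519 to 0.161).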

How the data were processed

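Total RNA of 15 samples was measured on 2 Affymetrix array types. The deposited values are log2 expression, as their range shows. The sources used here name no software, background correction or normalization of the authors, nor whether both tables were normalized jointly. Both tables list 22215 probe sets. The platform annotations assign 1 gene to 19707 of them and several to 614, leave 1706 unnamed and differ for 188. Symbols were updated through Entrez numbers for 19689. The single-gene probe set with the highest mean represented each of 12149 genes.

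The dimmest 25% of genes were left out and 9111 were tested with limma 3.58.1 in R 4.3.3 (lmFit and eBayes, 2-sided), in 1 fit over T4R, T4 and S1 with the table as a fixed block. P-values were adjusted by Benjamini-Hochberg over all genes tested, with a threshold of 0.05. All T4 samples lie in the first table, so the table term rests on T4R and S1. It was called for 837 genes higher and 797 lower in the second table. The fit was tested on simulated data. The labels do not tell whether replicate samples are separate cultures, so the spread behind each p-value is only that of these samples and may be technical. For T4R it also holds the differences between 9 agents. The number of arrays limits the precision.

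The members and gene lists were chosen with earlier results of these data known. The text names all members and, of the pathway lists and in each comparison, the called genes with the largest change, up to 3 in each direction. Of the marker lists, 1 of 8 tested epithelial genes was higher in T4 than in S1 (KRT18), 1 was higher and 1 lower in T4R than in T4 (EPCAM and KRT18), and 1 was higher in T4R than in S1 (KRT8). Of 3 tested leukocyte, endothelial and adipocyte genes, CD14 was higher in T4 and in T4R than in S1. Of 5 tested fibroblast genes, COL1A1 and COL3A1 were higher in T4R than in S1. The shares of all genes called, given with the members, stand beside these counts too. Leaving out single samples ended the calls of EPCAM (T4 sample 1, T4 sample 3 or LY294002), KRT8 (S1 sample 2, S1 sample 3 or LY294002), CD14 in T4R and COL1A1 (S1 sample 3) and COL3A1 (any of 10 samples). S1 and T4 share sample numbers in the labels. Deviations of same-numbered samples from their group means correlated at 0.191, 0.297 and 0.355 over the genes. All were above 0.1, so a replicate block was tried. Samples of different number correlated at 0.282 and 0.218 between samples 1 and 2, both above 0.191. These values therefore do not show that the numbers are pairs. Alternatives covered the probe set, the filter, the normalization, the table term, array weights, single tables and leaving out each sample.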

Additional observations from a re-analysis of the deposited data

Results flagged for a closer look

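Among the 9 T4R samples, 3 of the 30 measured members had an end sample that stood apart from the rest. The rule was Dixon's criterion (gap over range above 0.493), which chance meets in about 1 in 20 groups of like samples. All 3 of these end samples were the dominant-negative Rap1 sample. HK2 was highest there at a log2 level of 9.16, against 8.66 in the next sample (gap over range 0.559). ENO2 was highest there at 7.54, against 6.98 in the next (0.663). PKM was lowest there at 11.59, against 12.11 in the next (0.5). The T4R samples are 9 different agents spread over both array types, so the rate of 1 in 20 may not hold for them. The share of all genes meeting the criterion was not computed, nor the share for the dominant-negative Rap1 sample. The count of 3 is therefore not read as particular to the members.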

How the results depend on the processing

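No called difference of a member changed sign under any alternative. Of the 30 calls of members, 13 were kept under every alternative: SLC2A3 in both comparisons with T4, PFKP and PFKM in both, LDHA in both, HK1 in both comparisons with S1 and MPC1 in all 3. The other 17 were lost under at least 1. Array weights called more: 4180 genes in T4 against S1 (2452 as reported), 3160 genes and 19 members in T4R against T4 (1358 and 11), and 3854 genes and 9 members in T4R against S1 (2116 and 4). In T4R against S1, 7 members were called in the first table alone and also without S1 sample 3 and T4 sample 3 together, an alternative chosen after seeing the data, as was the second table alone, which called 1165 genes. With the replicate block in T4 against S1, 2728 genes and 14 members were called with the table block and 2465 and 13 without it. Beside the calls of GPI, TPI1 and DLAT named with their results, the block with the table term changed no other member's call. Without the table term the block lost PFKL, TPI1, ENO2 and PDHB and gained PDHA1 and DLAT. Leaving out each sample in turn gave 1687 to 2788 genes and 9 to 16 members in T4 against S1, 948 to 1595 genes and 8 to 14 members in T4R against T4, and 1584 to 2412 genes and 3 to 6 members in T4R against S1. Without the table term the members' calls of PFKL, TPI1, ENO2, PDHB and MPC2 against S1 in T4, and of MPC2 in T4R against T4, were lost. The cause of these shifts was not tested. Without detection calls, the level at which a probe set is undetected is unknown.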

Other observations

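The citric acid cycle oxidises the acetyl-CoA made from pyruvate, and its list here also holds cytosolic forms such as IDH1 and MDH1. Of the 15 tested, 10 were lower and 0 higher in T4 than in S1 at an adjusted p under 0.05 in limma. Over all genes tested, the shares higher and lower were 14.6% and 12.3% in T4 against S1. They were 6.46% and 8.44% in T4R against T4 and 11.8% and 11.4% in T4R against S1. IDH3A and IDH3B, subunits of the NAD-dependent isocitrate dehydrogenase, fell by 1.37 ± 0.20 and 0.88 ± 0.12 on the log2 scale (adjusted p 0.000264 and 0.000187), and MDH1, cytosolic malate dehydrogenase, fell by 0.79 ± 0.16 (adjusted p 0.00297). In T4R against T4, 3 were higher: IDH1, the cytosolic NADP-dependent form (1.06 ± 0.10, adjusted p 3.4e-05), SDHD, a membrane anchor of complex II (0.81 ± 0.10, adjusted p 0.000256), and SUCLG1 (0.53 ± 0.15, adjusted p 0.0346). The SUCLG1 call was lost without S1 sample 2 or 3, any T4 sample, GM6001, or MMPs and ADAMs (0.47 to 0.55, adjusted p 0.0513 to 0.101). Without the table term SDHD was at 0.40 (adjusted p 0.175) and SUCLG1 at 0.25 (adjusted p 0.377), and neither was called. In T4R against S1, IDH1 was higher (0.57 ± 0.09, adjusted p 0.000721) and 7 genes were lower, among them IDH3A (-0.87 ± 0.17, adjusted p 0.002), IDH3B (-0.65 ± 0.10, adjusted p 0.000479) and SDHA (-0.61 ± 0.11, adjusted p 0.00115). In the second table alone, with 1 S1 sample, IDH3A (-0.54, adjusted p 0.203) was not called.

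Of 14 glycogen genes, 1 was higher and 4 lower in T4 than in S1, where 14.6% of all genes tested were higher and 12.3% lower. PYGL, liver glycogen phosphorylase, was higher in T4 than in S1 (2.46 ± 0.27, adjusted p 3.45e-05), lower in T4R than in T4 (-1.35 ± 0.25, adjusted p 0.00335) and higher in T4R than in S1 (1.11 ± 0.23, adjusted p 0.00318), a difference of 0.65 in the second table alone (adjusted p 0.26). PPP1R3C, a glycogen-targeting phosphatase subunit, was lower than in S1 in T4 (-2.98 ± 0.36, adjusted p 6.06e-05) and in T4R (-2.64 ± 0.29, adjusted p 3.73e-05), as were GYS1, glycogen synthase (-0.79 ± 0.13 and -0.85 ± 0.11, adjusted p 0.000643 and 0.000112), and GBE1, the branching enzyme (-1.05 ± 0.26 and -1.21 ± 0.21, adjusted p 0.00901 and 0.00136). The GBE1 call in T4 was lost without S1 sample 2 (-0.91, adjusted p 0.0526). GYG1, glycogenin, was higher in T4R than in S1 (0.85 ± 0.23, adjusted p 0.0167), but not without S1 sample 1 or 2 (0.78 and 0.83, adjusted p 0.0535 to 0.0666).

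Of 8 pentose phosphate genes, 1 was higher and 1 lower in T4 than in S1, and 0 of either passed in T4R against T4. In T4R against S1, 3 were higher and 1 lower. Over all genes, the shares higher and lower were 14.6% and 12.3%, 6.46% and 8.44%, and 11.8% and 11.4% in these comparisons. PRPS1, which makes the nucleotide precursor from ribose phosphate, was lower in T4R than in S1 (-1.24 ± 0.28, adjusted p 0.00621). RPIA (0.29 ± 0.10, adjusted p 0.0416) and PRPS2 (-1.08 ± 0.35, adjusted p 0.0325) were called in T4 against S1. Both calls were lost under quantile normalization across the tables (adjusted p 0.0606 and 0.0561). RPIA lost this call without S1 sample 1, T4 sample 2, T4 sample 3, MMPs and ADAMs, TNF protease inhibitor–2, PD98059, LY294002 or mAb225 (adjusted p 0.0532 to 0.208), and PRPS2 without S1 sample 1, S1 sample 2 or T4 sample 3 (adjusted p 0.0835 to 0.122). RPIA (0.34 ± 0.08, adjusted p 0.00907), RPE (0.47 ± 0.12, adjusted p 0.0129) and PGLS (0.53 ± 0.18, adjusted p 0.0447) were higher in T4R than in S1. RPIA was not called without S1 sample 1 (adjusted p 0.0508) and RPE not without S1 sample 1 or 2 (adjusted p 0.065 to 0.0663). Without the table term RPE was at 0.26 (adjusted p 0.431), and in the second table alone PRPS1 was at -0.48 (adjusted p 0.56). The PGLS call was lost when any 1 sample other than T4 sample 3, S1 sample 1, GM6001, MMPs and ADAMs and TNF protease inhibitor–2 was left out (0.16 to 0.61, adjusted p 0.0501 to 0.621).

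Of 6 tested genes of the shuttles that carry NADH equivalents into mitochondria, SLC25A12, an aspartate-glutamate carrier, was lower in T4 than in S1 (-0.85 ± 0.13, adjusted p 0.000479) and higher in T4R than in T4 (0.60 ± 0.12, adjusted p 0.00599), the T4R difference falling to 0.31 without the table term (adjusted p 0.208). GPD1L was higher in T4R than in T4 (1.44 ± 0.31, adjusted p 0.00754). SLC25A13, the other such carrier, was higher in T4 than in S1 (0.90 ± 0.27, adjusted p 0.025), but not without S1 sample 1, S1 sample 2 or T4 sample 3 (0.52 to 0.83, adjusted p 0.0742 to 0.111). GOT1 was lower in T4R than in S1 (-0.72 ± 0.18, adjusted p 0.0113), but not without S1 sample 3 (-0.58, adjusted p 0.118).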
